A study of Rattus norvegicus with 8 samples.

Results

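The 40 genes described here copy DNA or supply its nucleotides, and they were chosen by name: a regulator, the proteins that license and fire replication origins, the helicase, the polymerases and their clamp, the factors that finish strands and restore chromatin, and enzymes of nucleotide supply. All 40 were found among the 24136 genes of the arrays, as 48 of 26208 probe sets, with 33 genes held by 1 probe set and 7 by several. In 8 genes at least 1 probe set stood under another symbol, such as Ris2 for Cdt1 and Recc1 for Rfc1, and was matched by gene identifier. The study compared 4 liver samples of male F344/N rats given thioacetamide, a liver toxicant, for 28 days with 4 of untreated male F344/N rats. The labels give the controls tap water and list gavage as the route in both groups, while the protocol describes the controls as kept on basal diet and tap water with no treatment. The labels state neither dose nor age, and they number the samples as replicates without saying that each came from its own rat, so p-values measure the spread between samples, which may be technical. Total RNA was labelled with Cy3 and hybridised to 1 NimbleGen expression array per sample, and the values are log2 expression levels.

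Replication starts when the origin recognition complex, Cdc6 and Cdt1 load the hexameric Mcm helicase onto DNA, a step held to once per cycle by geminin. Helicase activators, primase and polymerases, the clamp Pcna and its loader then copy the strands, while ribonucleotide reductase and thymidylate synthase make the deoxynucleotides. Many of these genes are targets of E2F factors and are used when a cell enters S phase. Hepatocytes of the adult liver are mostly quiescent and enter the cycle after injury or loss of tissue.

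The arrays carried defining hepatocyte genes (Alb, Apob, Ttr and 7 others) above background in both groups, and 0 of these 10 passed the test. Their mean log2 level was 15.29 to 15.38 on treated arrays and 15.38 to 15.42 on control arrays. Whether signals this bright could show a change was not tested. Background was taken as the 95th percentile, per array, of 1312 olfactory receptor probe sets. It lay between 6.53 and 6.93 in treated samples and between 6.96 and 7.88 in controls. The second component of the whole data, with 19.8% of the variance, set thioacetamide replicate 4 and control replicate 3 highest. Without control replicates 2 and 3 and thioacetamide replicate 4, 17 members passed as higher, against 16 with all arrays. The level of a transcript in whole liver is measured here, so more cells in cycle and more RNA per cell cannot be told apart.

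Many promoters of these genes carry an E2F-type motif, and 5 windows of members that rose are printed, 4 with the motif and 1 without, to show what it looks like and where it lies. The windows run from 250 bases before to 50 bases after the RefSeq gene start (GRCr8), written in the direction of the gene. Capitals mark the motif, spelled TTTGGCGC, TTTGCCGC, TTTCGCGC or TTTCCCGC on either strand, with overlapping matches joined. They are Tyms (chr9:120776034-120776333, minus strand), Mcm3 (chr9:30733697-30733996, minus strand), Rfc3 (chr12:5836318-5836617, plus strand), Gins1 (chr3:160184670-160184969, plus strand) and Pold2 (chr14:84969047-84969346, minus strand).
Tyms: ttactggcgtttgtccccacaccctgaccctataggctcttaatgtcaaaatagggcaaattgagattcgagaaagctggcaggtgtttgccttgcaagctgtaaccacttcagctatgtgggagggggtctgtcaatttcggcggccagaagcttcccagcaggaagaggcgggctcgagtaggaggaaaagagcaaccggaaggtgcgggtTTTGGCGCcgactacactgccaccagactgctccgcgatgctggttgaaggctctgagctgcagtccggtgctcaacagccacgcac
Mcm3: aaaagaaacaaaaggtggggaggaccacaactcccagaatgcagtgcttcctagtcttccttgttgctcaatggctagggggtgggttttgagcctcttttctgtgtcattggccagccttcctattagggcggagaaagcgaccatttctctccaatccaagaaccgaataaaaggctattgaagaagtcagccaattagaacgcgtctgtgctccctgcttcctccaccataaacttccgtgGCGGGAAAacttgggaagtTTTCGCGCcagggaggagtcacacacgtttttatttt
Rfc3: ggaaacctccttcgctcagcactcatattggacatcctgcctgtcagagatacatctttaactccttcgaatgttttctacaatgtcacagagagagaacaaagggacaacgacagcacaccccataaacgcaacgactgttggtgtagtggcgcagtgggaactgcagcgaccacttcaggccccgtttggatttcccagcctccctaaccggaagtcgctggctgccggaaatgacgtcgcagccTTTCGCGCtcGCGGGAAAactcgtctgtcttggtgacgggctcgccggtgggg
Gins1: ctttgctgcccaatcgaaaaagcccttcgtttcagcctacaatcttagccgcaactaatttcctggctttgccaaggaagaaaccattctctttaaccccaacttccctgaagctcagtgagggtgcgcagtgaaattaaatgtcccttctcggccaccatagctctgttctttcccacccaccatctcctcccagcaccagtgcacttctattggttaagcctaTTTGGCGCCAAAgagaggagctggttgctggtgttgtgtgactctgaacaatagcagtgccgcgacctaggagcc
Pold2: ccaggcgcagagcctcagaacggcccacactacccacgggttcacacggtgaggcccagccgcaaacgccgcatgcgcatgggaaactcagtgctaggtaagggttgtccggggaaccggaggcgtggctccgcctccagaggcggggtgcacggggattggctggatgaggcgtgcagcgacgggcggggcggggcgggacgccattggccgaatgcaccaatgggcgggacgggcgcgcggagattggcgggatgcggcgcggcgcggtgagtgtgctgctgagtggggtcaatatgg

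The motif stood in the promoters of 16 of the 36 members that RefSeq's table holds (44.4%), against 651 of all 27457 genes (2.37%). Counted by window, 16 of 39 member promoters had it (41%), against 716 of 33469 (2.14%). Of 22 sites in member promoters, 16 had their centre within 60 bases of the gene start. Tyms had 1 site upstream of its start, Mcm3 and Rfc3 had 2 each around it, and in Gins1 2 overlapping matches formed 1 site. Pold2 had no E2F-type match in its window and 4 matches to CCAAT, a common promoter element that 61.1% of the members and 39.6% of all genes held. The member windows had a median of 60% G and C, against 51.7% over all windows. Among members the motif was in 8 of the 14 matched genes that rose and in 8 of the 22 that did not pass, a difference that was not tested. Rrm1 counts among the 14, although RefSeq assigns its probe set that passed to a pseudogene.

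**Figure D1:**
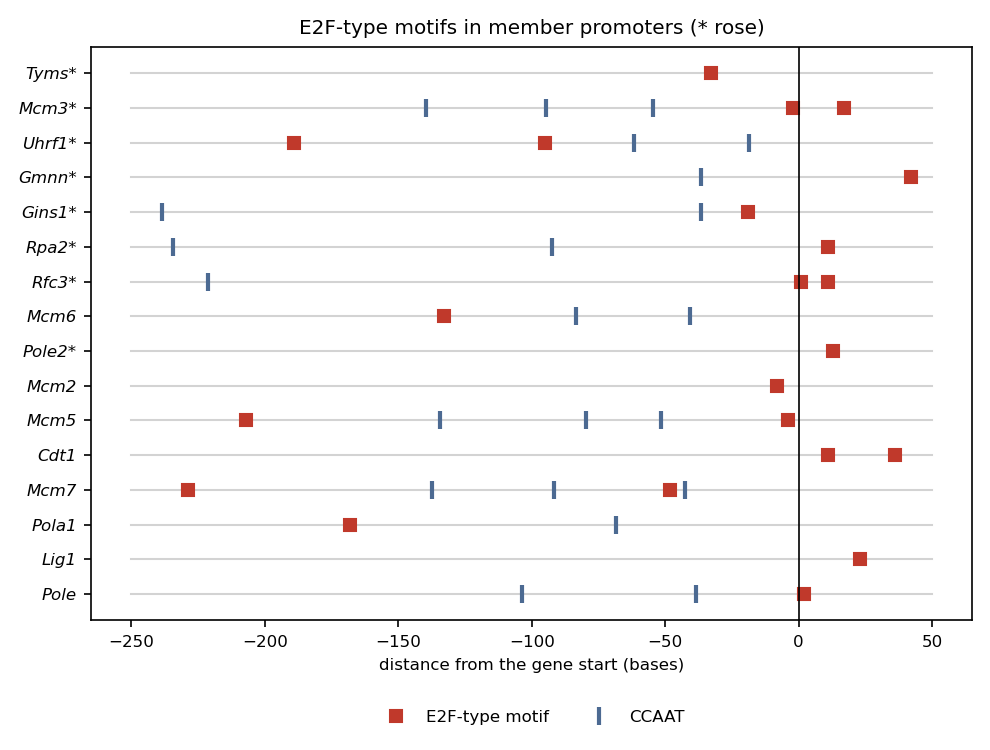
E2F-type motifs (squares) and CCAAT (bars) by distance in bases from the gene start in the 16 member promoters that hold an E2F-type motif, 1 window per row, ordered by log2 difference with the largest at the top and members that rose starred. Most squares lie close to the start (16 of 22 within 60 bases).

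Part of the replication and nucleotide genes rose in treated livers. Of the 40 genes, 16 rose and 0 fell (adjusted p under 0.05, limma with Benjamini-Hochberg over all probe sets), where 9.67% of all 24136 genes rose and 5.24% fell. The median log2 difference (thioacetamide minus control) was 0.79, against -0.04 over all genes, and 36 of 40 differences were positive, against 47.4% of all genes. At an unadjusted p under 0.05 it was 25 higher and 1 lower, where all genes gave 17.2% and 12.7%. The 4 treated arrays lay wholly above the 4 controls in 17 members and wholly below in 0, against 14.2% and 7.69% of genes. Of the 40 genes, 15 rose with a fitted fold of at least 2, against 6.72% of all genes. Pola2 and Pole2 are among these 15 and have controls under background, so that only the lower bounds given with them hold. Both bounds (1.496 and 1.16) lie under 2. Orc6 and Uhrf1 are also among the 15, with only 1 control above background each, and no fold is given for them. The number that rose was 9 without thioacetamide replicate 1, 8 without thioacetamide replicate 2 and 9 without thioacetamide replicate 3. Of the 16 genes, 8 passed in all 18 alternatives (Tyms, Pold2, Pola2, Mcm3, Chaf1a, Rpa2, Rfc3 and Pole2).

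**Figure D2:**
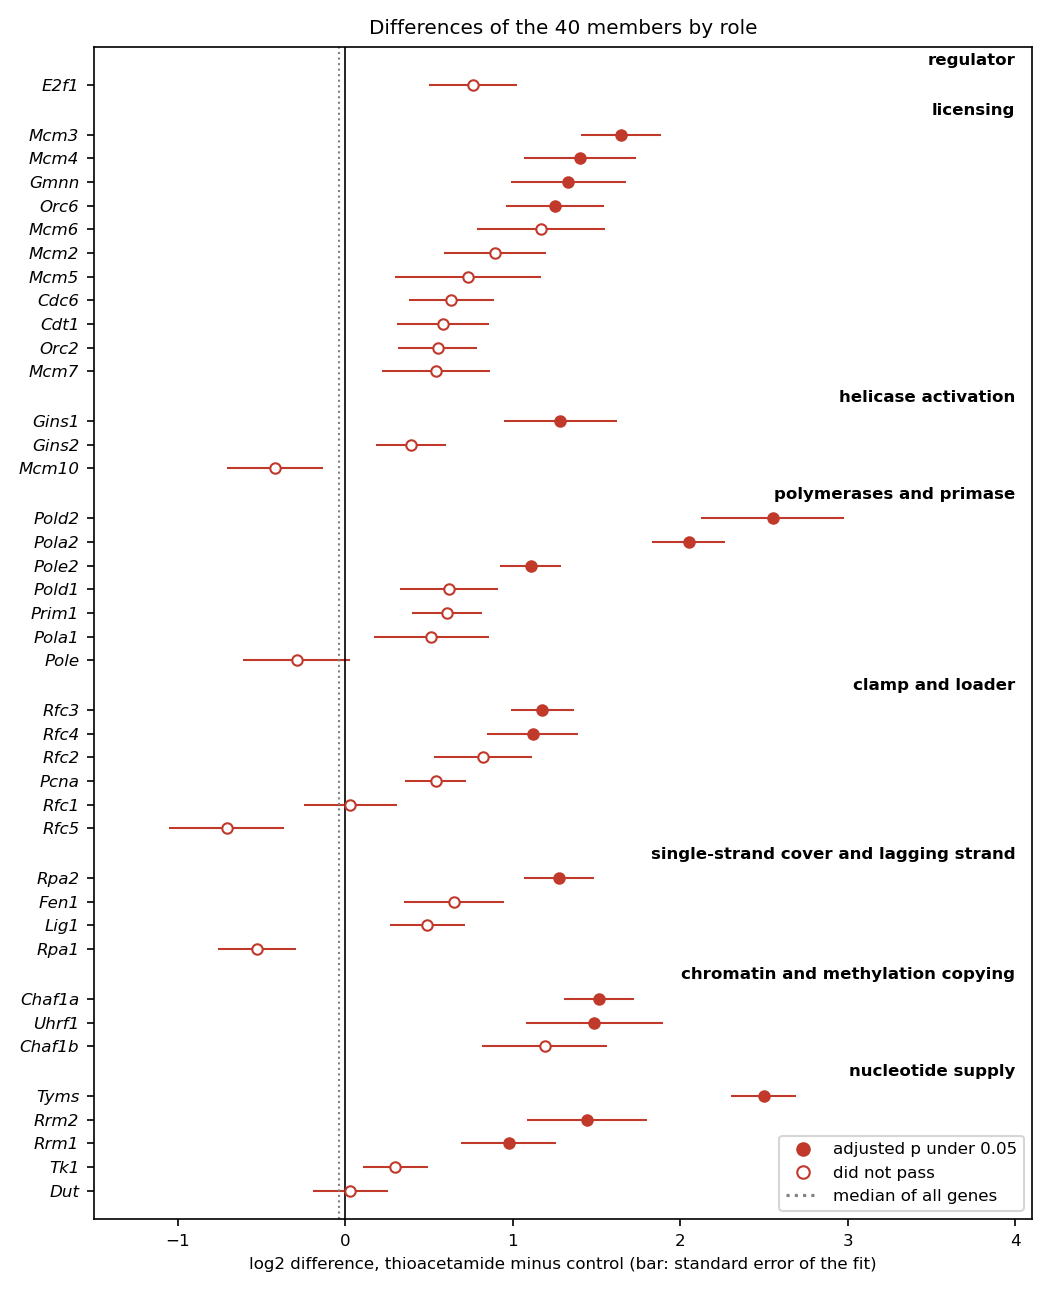
Log2 difference (thioacetamide minus control, x axis) of each of the 40 members by role, with bars for the standard error of the fit, filled points for adjusted p under 0.05, and a dotted line at the median of all genes (-0.04). Points to the right of 0 are 36 of 40, and Pold2, Tyms and Pola2 lie farthest right.

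Averaged over the members, the level was 9.02, 9.11, 9.02 and 8.89 on the treated arrays, against 7.97, 8.21, 7.98 and 8.44 on the control arrays (log2). The groups did not overlap, and control replicate 4 stood nearest to the treated samples. It held the highest control value in 22 of the 40 genes, whereas control replicates 1 and 3 held the lowest in 15 and 16. Among treated samples, replicate 4 was lowest in 19 genes. The controls kept the same order in 20 mitotic genes that are no members, and the treated samples did not. These genes averaged 9.35, 9.24, 9.11 and 8.99 in treated samples and 7.53, 7.86, 7.55 and 8.20 in controls.

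**Figure D3:**
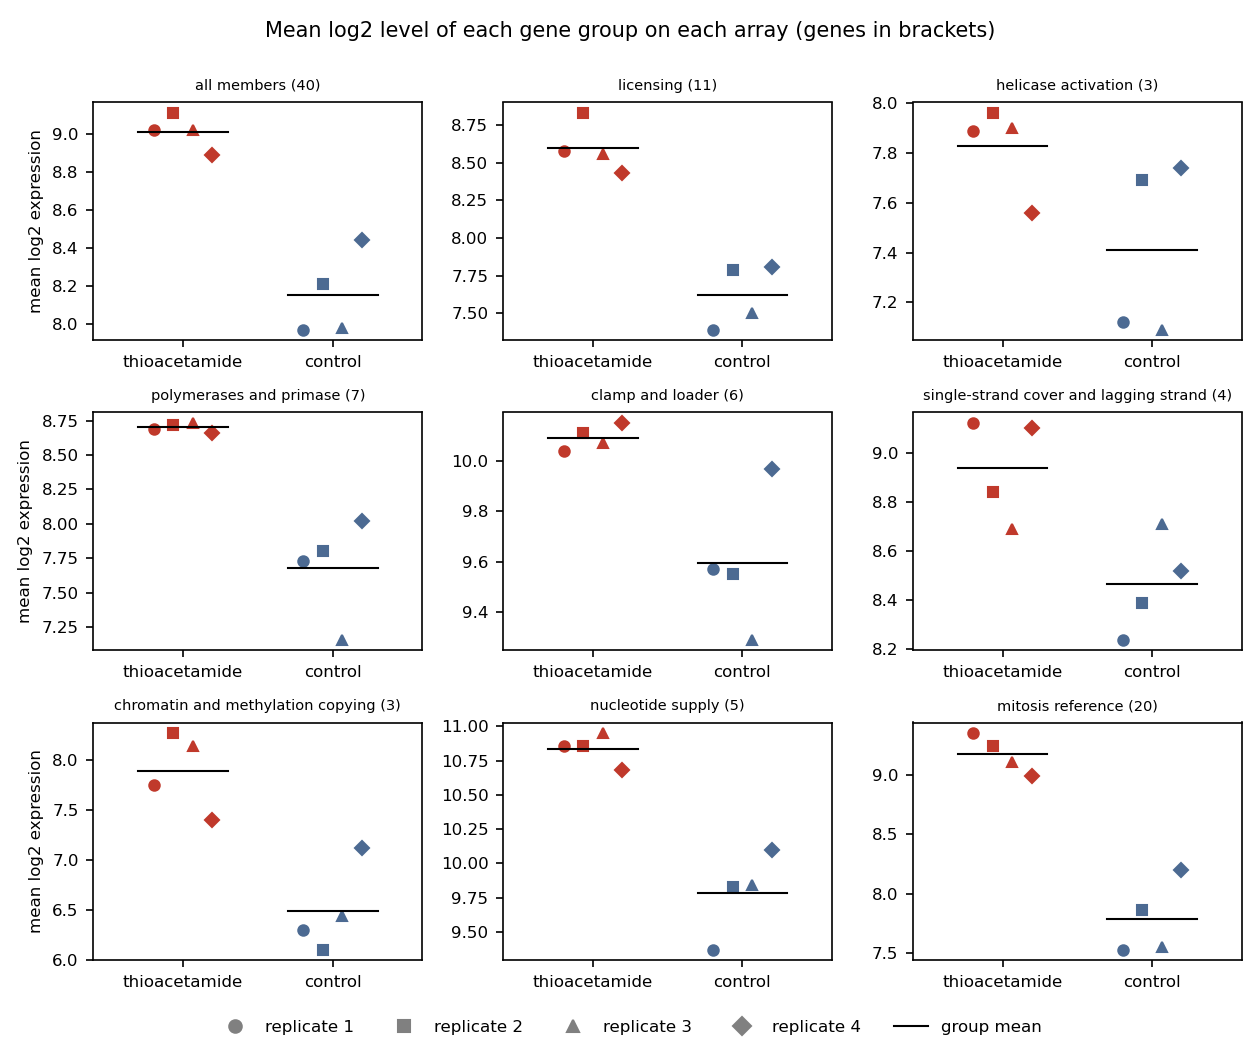
Mean log2 expression of each gene group on each array (y axis), thioacetamide left and control right, with a marker shape for each replicate and a line at the group mean. Over all 40 members the 4 treated arrays lie between 8.89 and 9.11, above the controls at 7.97 to 8.44, and control replicate 4 is the highest control in 8 of 9 panels.

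E2f1, a transcription factor that switches on S phase genes, was close to background. Its log2 level was 7.54, 7.48, 7.30 and 6.57 in treated samples and 6.21, 6.66, 6.20 and 6.78 in controls, with all controls at or under background. The difference of 0.76 ± 0.26 (SE) did not pass (adjusted p = 0.0838), and it passed without thioacetamide replicate 4 (0.98, adjusted p = 0.0243). Of 10 measured E2F factors, partners and pocket proteins that are no members, 1 rose and 1 fell. The shares over all genes were 9.67% and 5.24%. Rbl1, a pocket protein also called p107, rose by 1.49 ± 0.43 (2.80-fold, adjusted p = 0.0440). Its groups overlapped (lowest treated sample 7.19, highest control 7.47), and only 2 controls lay above background. Rbl2, the pocket protein p130 of quiescent cells, fell 2.14-fold (-1.10 ± 0.31, adjusted p = 0.0396).

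Of 11 origin licensing genes 4 rose and 7 did not pass, where 9.67% of all genes rose. All 11 differences were positive, against 47.4% of all genes, and no test of the group was run. Mcm3, a helicase subunit, rose most: its levels were 10.13, 10.12, 9.94 and 10.45 in treated samples, against 7.95, 8.54, 8.66 and 8.90 in controls. Its groups were far apart, and the difference was 1.65 ± 0.24 (3.13-fold, adjusted p = 0.00164). Mcm4, another subunit, had 8.48, 8.77, 8.80 and 8.05 in treated samples and 6.70, 7.40, 6.46 and 7.92 in controls. The lowest treated sample lay just above the highest control, and the difference was 1.40 ± 0.33 (2.64-fold, adjusted p = 0.0194). Of its controls 2 of 4 were at or under background.

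Gmnn encodes geminin, the inhibitor of Cdt1, and had 9.38, 9.44, 9.28 and 9.52 in treated samples, against 7.95, 8.52, 7.03 and 8.79 in controls. The treated samples were tightly grouped and the controls were spread, and Gmnn rose by 1.33 ± 0.34 (2.52-fold, adjusted p = 0.0283), with 1 control under background. Orc6, a subunit of the origin recognition complex, had 8.12, 8.33, 8.27 and 8.17 in treated samples and 6.67, 6.48, 7.89 and 6.84 in controls. Only control replicate 3 came near the treated values, and Orc6 rose by 1.25 ± 0.29 (adjusted p = 0.0183). The other 3 controls were under background, so no fold is given. Mcm4 missed the threshold without control replicate 1 or thioacetamide replicate 1, 2 or 3 (adjusted p = 0.0510, 0.0529, 0.0685 and 0.0610). Gmnn missed it without control replicate 1 or any 1 treated sample (adjusted p = 0.06 to 0.0813), and Orc6 without control replicate 2 or thioacetamide replicate 2 or 3 (adjusted p = 0.05, 0.0619 and 0.0519) and under cyclic loess (adjusted p = 0.0512).

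The other 7 licensing genes did not pass in the fit with all arrays. Mcm6 differed by 1.17 ± 0.38 (adjusted p = 0.0682), Mcm2 by 0.89 ± 0.31 (adjusted p = 0.0799), Mcm5 by 0.73 ± 0.44 (adjusted p = 0.298) and Mcm7 by 0.54 ± 0.32 (adjusted p = 0.295). All are subunits of the same hexamer as Mcm3 and Mcm4, so 2 of 6 subunits passed and all 6 had positive differences. Cdc6 and Cdt1, the loaders, differed by 0.63 ± 0.25 and 0.59 ± 0.27 (adjusted p = 0.127 and 0.186), with all controls at or under background. Orc2, a second origin complex subunit, differed by 0.55 ± 0.23 (adjusted p = 0.147). Mcm2 passed without control replicate 1 (1.18, adjusted p = 0.0166), which read 8.52 where the other controls read 7.37 to 7.43. Mcm6 passed without control replicate 4 (adjusted p = 0.0188) or thioacetamide replicate 4 (adjusted p = 0.0333), and Cdc6 without control replicate 3 (adjusted p = 0.0366). Second probe sets of Mcm5 and Cdc6 differed by 1.07 ± 0.40 and 0.69 ± 0.25 and did not pass either (adjusted p = 0.109 and 0.0956).

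Of the 3 genes of helicase activation, Gins1 alone passed, where 9.67% of all genes rose. Gins1, a subunit of the GINS complex of the active helicase, had 8.14, 8.30, 8.25 and 8.01 in treated samples and 6.47, 7.36, 6.06 and 7.68 in controls. The controls spread widely below the treated samples, and Gins1 rose by 1.28 ± 0.34 (2.44-fold, adjusted p = 0.0302), with 2 of 4 controls at or under background. It missed the threshold without control replicate 1 or thioacetamide replicate 1, 2 or 3 (adjusted p = 0.0725, 0.0754, 0.0911 and 0.0783). The same held under cyclic loess and a second quantile normalization (adjusted p = 0.0511 and 0.0513) and without control replicates 2 and 3 and thioacetamide replicate 4 together (adjusted p = 0.05). Its partner Gins2 differed by 0.39 ± 0.21 (adjusted p = 0.240). Mcm10, which helps to start unwinding, differed by -0.42 ± 0.29 (adjusted p = 0.369), with thioacetamide replicate 4 at 6.58 and the other treated samples at 7.64 to 7.68.

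Of 7 polymerase and primase genes 3 rose, each of them the second subunit of its polymerase, where 9.67% of all genes rose. The median log2 difference of the 7 was 0.62. Further subunits that are no members did not pass: Pold3 (0.63, adjusted p = 0.0537), Prim2 (0.64, 0.213) and Pole3 (0.16, 0.606). Nor did Pole4 (-0.20, adjusted p = 0.478) and Pold4 (-0.56, 0.0726), and Pold4 was lower in treated samples without overlap. Pold2, the second subunit of polymerase delta, had 10.59, 10.84, 10.86 and 11.43 in treated samples, against 8.53, 9.10, 6.98 and 8.89 in controls. It rose by 2.55 ± 0.43 (5.87-fold, adjusted p = 0.00346), and control replicate 3 was the lowest value and the only one under background. Pola2, the second subunit of polymerase alpha, had 7.69, 8.08, 7.72 and 8.01 in treated samples and 6.02, 5.54, 5.55 and 6.19 in controls. All controls were at or under background, so Pola2 was at least 1.496-fold higher (measured means 7.87 and 5.82, adjusted p = 0.000319). Pole2, the second subunit of polymerase epsilon, had 7.46, 7.31, 7.66 and 7.59 in treated samples and 6.46, 6.47, 6.14 and 6.52 in controls. It too was under background in all controls and was at least 1.16-fold higher (measured means 7.50 and 6.40, adjusted p = 0.00331). These bounds set the mean of the treated samples against the background level of the controls.

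The catalytic subunits did not pass. Pold1 differed by 0.62 ± 0.29 (adjusted p = 0.190), Pola1 by 0.52 ± 0.34 (adjusted p = 0.353) and Pole by -0.29 ± 0.32 (adjusted p = 0.593). A second probe set of Pola1 gave 0.73 ± 0.26 (adjusted p = 0.0920). Prim1, the small primase subunit that makes RNA primers, differed by 0.61 ± 0.21 (adjusted p = 0.0830), with treated samples at 10.50 to 10.75 and controls at 9.63 to 10.36, which do not overlap. It passed with dim probe sets filtered out (adjusted p = 0.0442). Pold1 passed without control replicate 4 (0.88, adjusted p = 0.0424), the control that read 8.29 beside 6.94 to 7.52 in the others.

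The clamp and its loader gave 2 calls among 6 genes, where 9.67% of all genes rose. Rfc3, a small subunit of the clamp loader, had 10.84, 10.56, 10.95 and 11.11 in treated samples and 9.59, 9.71, 9.82 and 9.63 in controls. Both groups were compact, and Rfc3 rose by 1.18 ± 0.19 (2.26-fold, adjusted p = 0.00274). Rfc4, another small subunit, had 10.02, 10.19, 9.96 and 10.39 in treated samples and 8.91, 9.37, 8.32 and 9.49 in controls. It rose by 1.12 ± 0.27 (2.17-fold, adjusted p = 0.0215) and missed the threshold without control replicate 1 or thioacetamide replicate 1, 2 or 4 (adjusted p = 0.0519, 0.0516, 0.0672 and 0.0515). Pcna, the sliding clamp, read 12.03 to 12.28 in treated samples and 11.28 to 11.70 in controls, without overlap, and its difference of 0.54 ± 0.18 did not pass (adjusted p = 0.0767). Pcna passed with dim probe sets filtered out (adjusted p = 0.035), with an intensity trend and robust estimation (0.0339) and without variance moderation (0.033).

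The remaining loader subunits did not pass either. Rfc2 differed by 0.82 ± 0.29 (adjusted p = 0.0924) and passed without control replicate 4 (1.01, adjusted p = 0.0481). Rfc1, the large subunit, differed by 0.03 ± 0.28 (adjusted p = 0.953) and its sign turned under median centring, cyclic loess and a second quantile normalization. Rfc5 was at or under background on all treated arrays, with a difference of -0.71 ± 0.34 (adjusted p = 0.201) and 0.08 ± 0.25 by a second probe set that was dim on all arrays.

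Among the genes that protect single strands and join the lagging strand, Rpa2 was the call among 4, where 9.67% of all genes rose. Rpa2, the middle subunit of replication protein A, had 9.63, 9.09, 8.97 and 9.56 in treated samples, against 7.94, 7.96, 8.17 and 8.06 in controls. The controls were tightly grouped well below the treated samples, and Rpa2 rose by 1.28 ± 0.21 (2.43-fold, adjusted p = 0.00312). Rpa1, the large subunit of the same complex, differed by -0.53 ± 0.23 (adjusted p = 0.162), the member that was lower at an unadjusted p under 0.05. Fen1, a flap nuclease, differed by 0.65 ± 0.30 (adjusted p = 0.177), and passed without control replicate 3 (0.90, adjusted p = 0.0351). Lig1, the ligase that seals Okazaki fragments, differed by 0.49 ± 0.22 and 0.79 ± 0.28 by its probe sets (adjusted p = 0.175 and 0.0862).

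Chromatin and methylation copying gave 2 calls among 3 genes, where 9.67% of all genes rose. Chaf1a, the large subunit of the chromatin assembly factor that loads histones behind the fork, had 8.83, 8.80, 9.07 and 8.79 in treated samples and 7.38, 7.05, 7.20 and 7.79 in controls. It rose by 1.52 ± 0.21 (2.86-fold, adjusted p = 0.00122), with the groups well apart and 2 of 4 controls at or under background. Uhrf1, which brings the maintenance methyltransferase to new DNA, had 7.86, 8.12, 8.17 and 7.53 in treated samples and 5.98, 5.53, 6.54 and 7.69 in controls. Control replicate 4 lay inside the treated range, and Uhrf1 rose by 1.49 ± 0.41 (adjusted p = 0.0376). The other 3 controls were under background, so no fold is given. It missed the threshold without control replicate 1 or 2 or thioacetamide replicate 1, 2 or 3 (adjusted p = 0.0842, 0.0858, 0.0877, 0.110 and 0.100). It also missed it under cyclic loess and a second quantile normalization (adjusted p = 0.0539 and 0.0509) and without control replicates 2 and 3 and thioacetamide replicate 4 together (adjusted p = 0.0935). Chaf1b, the middle subunit, was under background in all controls and differed by 1.19 ± 0.37 (adjusted p = 0.0601), and it passed without thioacetamide replicate 4 (1.52, adjusted p = 0.0144), which read 5.87 beside 6.55 to 7.88 in the other treated samples.

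Nucleotide supply held the member with the smallest p, Tyms. Thymidylate synthase makes thymidylate from deoxyuridylate, and its gene had 12.12, 12.48, 12.17 and 12.03 in treated samples, against 9.45, 9.67, 9.73 and 9.95 in controls. No sample of either group lay near the other group, and Tyms rose by 2.50 ± 0.19 (5.65-fold, adjusted p = 6.34e-05). Rrm2, the regulated subunit of ribonucleotide reductase, had 10.79, 10.96, 10.88 and 10.50 in treated samples and 8.18, 9.40, 9.76 and 10.02 in controls. Control replicate 1 was far below the others, and Rrm2 rose by 1.44 ± 0.36 (2.72-fold, adjusted p = 0.0246). It missed the threshold without control replicate 2 or thioacetamide replicate 1, 2 or 3 (adjusted p = 0.0534, 0.0668, 0.0795 and 0.0673) and under cyclic loess (adjusted p = 0.0634).

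Rrm1, the large subunit of the same enzyme, was measured by 3 probe sets with like differences, of which 1 passed. The brightest had 10.83, 11.15, 11.15 and 10.51 in treated samples and 9.98, 10.11, 9.19 and 10.44 in controls. It rose by 0.98 ± 0.29 (1.97-fold, adjusted p = 0.0466), with the lowest treated sample just above the highest control. The second had 10.29, 10.70, 9.65 and 10.35 in treated samples and 9.69, 9.12, 8.62 and 10.04 in controls, a difference of 0.88 ± 0.34 (adjusted p = 0.111). The third had 8.42, 8.99, 8.96 and 7.54 in treated samples and 7.48, 6.80, 7.26 and 8.61 in controls, a difference of 0.94 ± 0.43 (adjusted p = 0.175). In both the groups overlapped. RefSeq assigns the gene identifier of the first and second to a pseudogene, Rrm1-ps1, and that of the third to Rrm1, so signal of gene and copy cannot be separated. The call was lost without control replicate 1, 2 or 3 or thioacetamide replicate 1, 2 or 3 (adjusted p = 0.0631 to 0.137), and under median centring, cyclic loess and the mean of the probe sets (adjusted p = 0.0708, 0.0606 and 0.0662).

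Tk1, the kinase that salvages thymidine, differed by 0.30 ± 0.19 (adjusted p = 0.340), with treated samples at 10.15 to 10.62 and controls at 9.88 to 10.31. Dut, which removes deoxyuridine triphosphate, gave 0.03 ± 0.22 by its brighter probe set (adjusted p = 0.943) and 0.84 ± 0.30 by the other (adjusted p = 0.0888). The first had a negative difference under median centring, cyclic loess and a second quantile normalization.

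**Figure D4:**
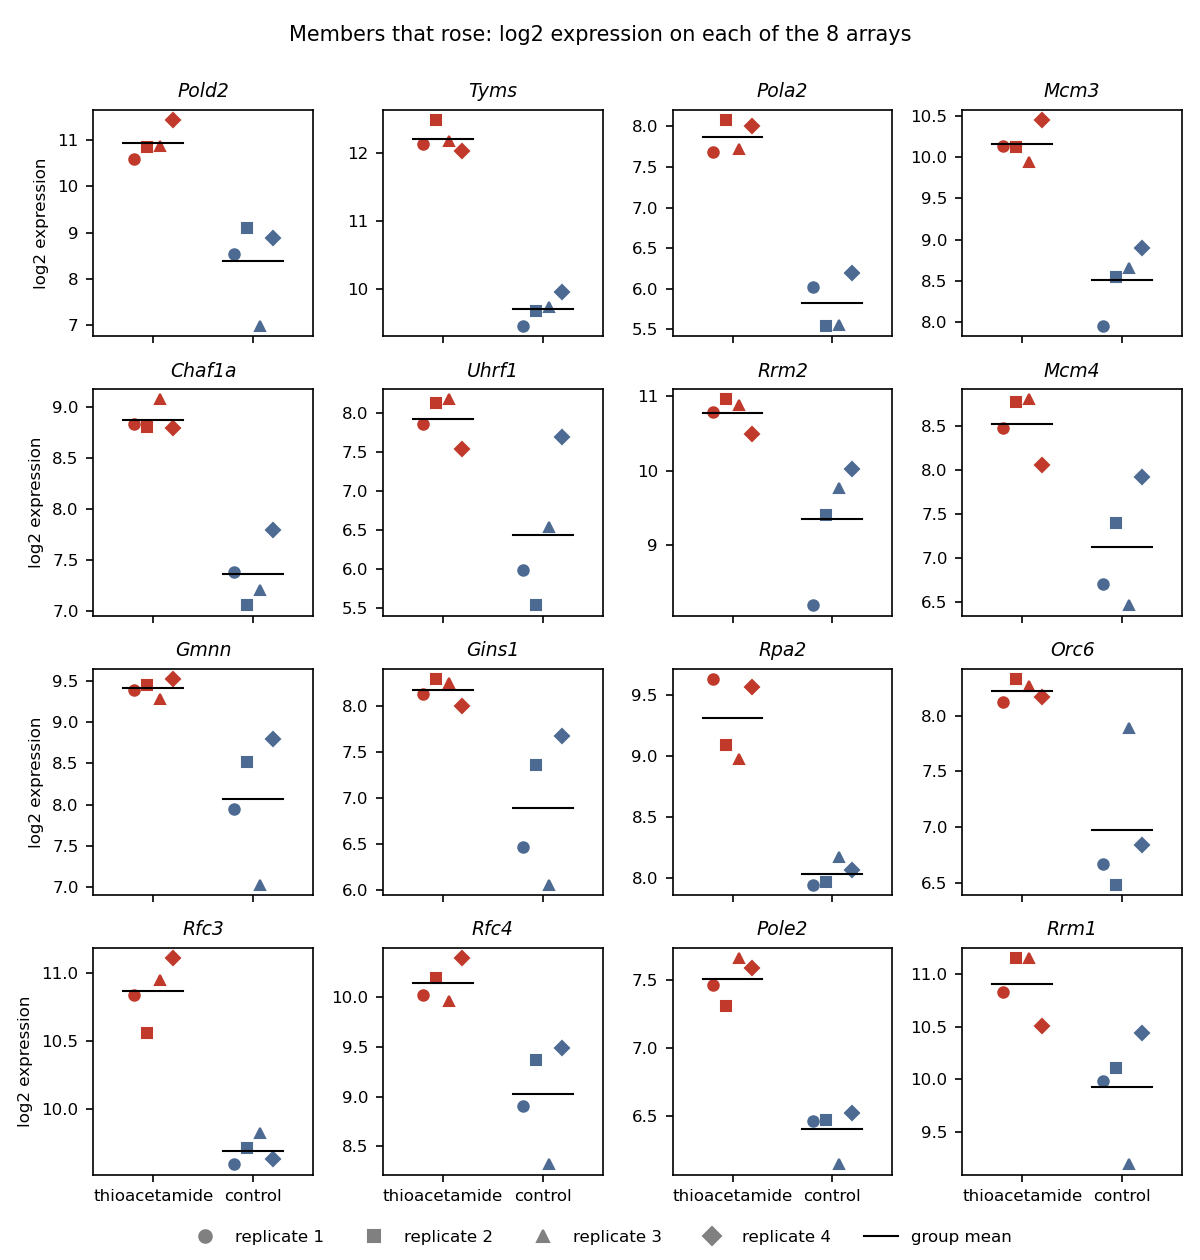
Log2 expression (y axis, own scale per panel) of the 16 members that rose on each array, thioacetamide left and control right, with a marker shape for each replicate and a line at the group mean. The groups are apart in every panel but Uhrf1, where control replicate 4 (7.69) lies above thioacetamide replicate 4 (7.53).

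Partner genes of one complex or pathway were set against each other, in pairs chosen with earlier results known. In 12 pairs the within-array log2 difference of the partners was compared between groups with a two-sided exact permutation test, whose smallest p with 4 against 4 arrays is 0.0286. It was reached by 5 pairs, the groups of which did not overlap, and Benjamini-Hochberg adjustment over the 12 gave them an adjusted p = 0.0686, which did not pass. With 12 pairs at least 7 must reach the smallest p for any to pass, so a miss here says little. Tyms differed from Tk1 by 2.20 (95% interval 1.71 to 2.69, from the pooled SD of the arrays, not adjusted over the 12 pairs). Pold2 differed from Pold1 by 1.93 (0.88 to 2.98), and Rpa2 from Rpa1 by 1.80 (1.12 to 2.49). Pola2 differed from Pola1 by 1.54 (0.37 to 2.70) and Pole2 from Pole by 1.40 (0.54 to 2.25). In these 4 complexes, singled out by reaching the smallest p, the second subunit had the larger difference. Among the other pairs Gins2 minus Gins1 (-0.89) and Chaf1b minus Chaf1a (-0.33) went the other way, and Rrm2 minus Rrm1 (0.47) did not. Rpa3, the third subunit of replication protein A and no member, differed by -0.48 (limma adjusted p = 0.101). The Pola2 and Pole2 values rest on controls at or under background, and Rpa1 was above background on 2 treated and 3 control arrays.

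The other 7 pairs had wide intervals that include 0. They were 0.70 (-0.36 to 1.77) for Orc6 over Orc2, 0.47 (-0.73 to 1.67) for Rrm2 over Rrm1 and 0.16 (-1.44 to 1.76) for Mcm2 over Mcm5. Prim1 over Pola1 gave 0.09 (-0.77 to 0.95) and Chaf1b over Chaf1a gave -0.33 (-1.39 to 0.74). Cdt1 over its inhibitor Gmnn gave -0.75 (-1.95 to 0.46) and Gins2 over Gins1 gave -0.89 (-1.94 to 0.16). Without control replicate 3, 7 pairs reached an adjusted p = 0.0490, among them Rrm2 over Rrm1 (0.85) and Orc6 over Orc2 (1.06). Rrm1 stands in its pair by the probe set whose identifier RefSeq assigns to the pseudogene Rrm1-ps1.

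**Figure D5:**
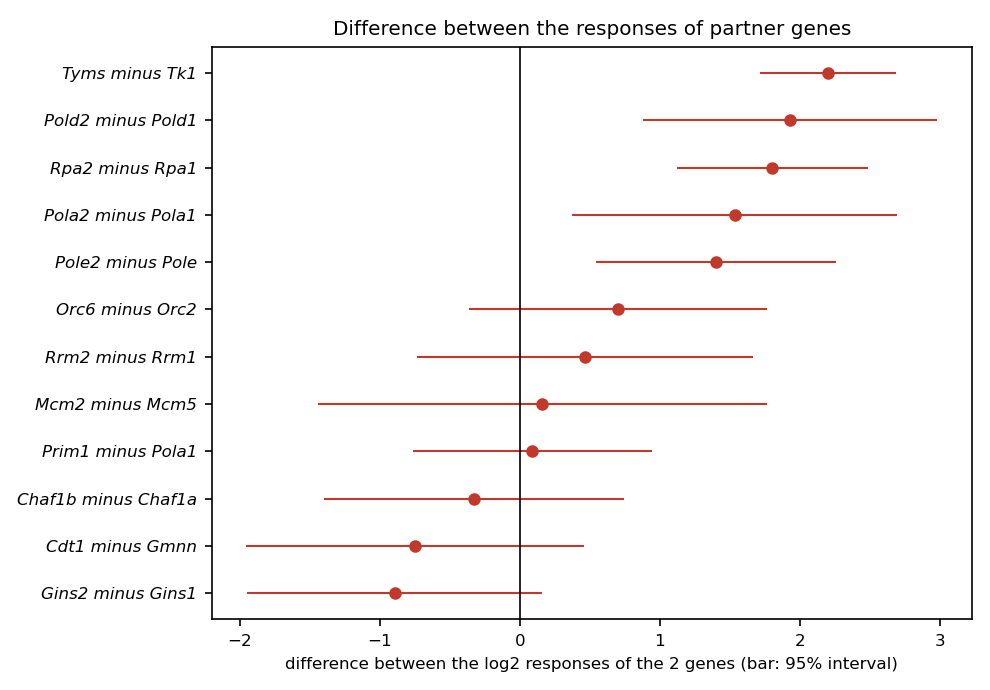
Difference between the log2 responses of 2 partner genes (x axis, first gene minus second) for 12 pairs, with 95% intervals. For 5 pairs, from Tyms minus Tk1 (2.20) to Pole2 minus Pole (1.40), the interval lies above 0, and for the other 7 it crosses 0. The intervals are not adjusted over the 12 pairs, and no pair passed the exact permutation test after adjustment.

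Other genes of the same processes were read from lists written beside the members. Over all genes 9.67% rose and 5.24% fell. Of 30 measured genes of origins and forks, 13 rose and 0 fell (median log2 difference 0.63). Dbf4, the activator of the kinase that fires origins, rose by 1.90 ± 0.30 (3.72-fold, adjusted p = 0.00283), with 3 controls above background. Wdhd1, which ties polymerase alpha to the helicase, was at least 1.96-fold higher and Cdc45, a part of the active helicase, at least 1.09-fold higher, both with all controls under background (adjusted p = 0.000712 and 0.00295). Of 10 genes of histone supply and maintenance methylation, 4 rose and 0 fell (median 0.71). The largest was Rbbp7, a histone-binding protein (1.88 ± 0.21, 3.69-fold, adjusted p = 0.000386). Tonsl, which reads new histones, was at least 1.18-fold higher (adjusted p = 0.00677), and Nasp, a histone chaperone, rose by 0.96 ± 0.19 (adjusted p = 0.00727).

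Of 36 measured genes of nucleotide synthesis, salvage and breakdown, 12 rose and 4 fell (median 0.54). The shares over all genes were 9.67% and 5.24%. Ctps1, a CTP synthase, rose by 2.72 ± 0.51 (6.58-fold, adjusted p = 0.00610), and Impdh1, which commits inosine monophosphate to guanine nucleotides, by 2.28 ± 0.34 (4.84-fold, adjusted p = 0.00192). Only 3 controls of Ctps1 and 2 of Impdh1 lay above background. The largest difference was a fall: Tymp, thymidine phosphorylase, which breaks thymidine down, averaged 9.53 ± 0.64 in treated samples and 13.25 ± 0.25 in controls (SD, n = 4 each). It fell by 3.73 on the log2 scale (13.2-fold lower, limma adjusted p = 9e-05). Of 20 mitotic genes, 16 rose and 0 fell (median 1.37), led by Ccnb1, cyclin B (2.08 ± 0.37), Aurkb, a mitotic kinase (2.05 ± 0.35), and Nusap1, a spindle protein (1.90 ± 0.33). Controls above background numbered 3 for Ccnb1 and for Aurkb and 1 for Nusap1.

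Markers of other cells moved with the treatment in part, read as the mean log2 level of a list on each array. Over all genes 9.67% rose and 5.24% fell. Of 8 macrophage markers 3 fell, with 10.60 to 11.19 in treated samples against 11.35 to 12.21 in controls. For T and NK cells 3 of 9 fell: Gzma (log2 difference -2.21), Prf1 (-1.10) and Gzmb, which was at or under background on all treated arrays. Cd3g (0.70), Cd8a (0.18), Cd2 (0.12) and Cd3d (-0.04) did not pass, and Cd3e and Klrd1 were at or under background on all arrays. The T and NK list averaged 6.67 to 7.06 in treated samples against 7.13 to 7.42 in controls. Neutrophil markers had 0 calls of 6, with 6.32 to 6.72 in treated samples against 6.59 to 7.29 in controls, and Mpo and Elane were at or under background on all arrays. B cell markers had 0 calls of 4, with 6.59 to 6.94 in treated samples against 6.81 to 7.22 in controls, and Cd79b and Ms4a1 were likewise dim. Of 6 bile duct markers 2 rose, Cldn7 and Epcam (log2 differences 3.52 and 1.87). Sox9 (1.26), Krt7 (0.23), Krt19 (0.08) and Spp1 (-0.31) did not pass. The bile duct list averaged 9.22 to 9.92 in treated samples against 7.92 to 9.14 in controls. Of 7 stellate cell markers 2 rose, with 9.92 to 10.42 in treated samples against 9.76 to 10 in controls. Of 6 endothelial markers 1 fell, with 9.21 to 9.81 in treated samples against 9.77 to 10.05 in controls. Of 6 erythroid precursor markers 1 rose and 1 fell, with 8.16 to 8.55 in treated samples against 8.02 to 8.68 in controls, and Klf1 was dim on all arrays. The part of these cells in the levels of the replication genes was not tested.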

How the data were processed

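Liver RNA of 4 thioacetamide and 4 control samples was measured on 1-colour arrays. The authors deposited log2 values per probe set, made with RMA per the submitters' processing notes, which for the sources used here name no version or settings. Values were taken from the sample files, and the series table differed from them by 0. Of 26208 probe sets 11, no member among them, lacked a value in control replicate 4, and 1 random control set was dropped. RefSeq (GRCr8) named 20543 probe sets through the gene identifier and 31 through the accession, and 5634 retained their deposited symbol. The probe set of highest average level represents its gene. Thioacetamide was set against control with limma 3.58.1 in R 4.3.3 (lmFit, eBayes), and called at a two-sided Benjamini-Hochberg adjusted p under 0.05, taken across every probe set. Errors on differences are standard errors of this model. Simulated data with equal spread in both groups were used to check the fitted differences, not these errors. Where a group was at or under background on all its arrays, the fold is a bound, left out if under 1. Depth has no meaning for arrays, whose number (4 a group) sets the precision. All members are named, those that passed with every array's value, and from each further list the 3 changed genes of largest difference. The members, lists and pairs were chosen with earlier results of these data known. Alternatives changed the scaling (median centring, cyclic loess, quantile), removed dim probe sets, modelled the variance otherwise, weighted arrays, blocked on the replicate number, averaged probe sets of a gene, or left out arrays.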

Additional observations from a re-analysis of the deposited data

Results flagged for a closer look

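In 80 groups of 4 arrays (40 members, 2 groups each) 5 held a value far from the other 3 by Dixon's criterion, and chance flags about 1 in 20. They were Chaf1a in thioacetamide replicate 3 (9.07), Mcm10 in thioacetamide replicate 4 (6.58), Pold1 in thioacetamide replicate 2 (7.71), Mcm2 in control replicate 1 (8.52) and Pole2 in control replicate 3 (6.14). Chaf1a passed without thioacetamide replicate 3 (adjusted p = 0.00596, limma) and Pole2 without control replicate 3 (adjusted p = 0.00518).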

How the results depend on the processing

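With all arrays 16 members rose. It was 9 without variance moderation and 8 to 19 with 1 array left out, 11 to 21 under the other alternatives, and 0 fell in any. The median of the members moved between 0.76 and 0.99 with 1 array left out. Over all probe sets 3827 changed, and 2163 with the replicate number as a block (replicate block; 11 members higher), and 2166 to 3924 with 1 array left out. The replicate numbers do not pair the samples by their deviations (correlations 0.25, -0.10, -0.13 and -0.43). No partner pair passed with all arrays, where at least 7 had to reach the smallest p. With 1 array left out, 7 passed without control replicate 3 and 0 in each other case. Without variance moderation 8 of the 16 calls were lost (Mcm4, Gmnn, Orc6, Gins1, Rfc4, Uhrf1, Rrm1, Rrm2) and Pcna was gained. With the block Mcm4, Gins1, Uhrf1, Rrm1 and Rrm2 were lost. With array weights Mcm6, Cdc6, E2f1, Fen1 and Chaf1b were gained, and without control replicates 2 and 3 and thioacetamide replicate 4 Mcm5, E2f1 and Chaf1b were. Mcm6 also passed with dim probe sets filtered out and Chaf1b with the intensity trend. Of 716 member values under the alternatives, 618 kept direction and call, 59 lost the threshold, 23 gained it and 16 changed sign. The signs that turned were those of Dut, Rfc1 and Pole. Dut was at -0.03 under median centring, -0.20 under cyclic loess, -0.0315 under a further quantile normalization and -0.12 to 0.15 with 1 array left out. Rfc1 was at -0.0294, -0.18 and -0.0373 under the same scalings, -0.067 with array weights, -0.18 without control replicates 2 and 3 and thioacetamide replicate 4, and -0.17 to 0.20 with 1 array left out. Pole was at -0.47 to 0.0324 with 1 array left out. The cause was not tested. Signal over background limits the dim members: 17 of 40 were above background on all 8 arrays, and 6 were at or under it in all controls.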

Other observations

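The spread between samples differed between the groups. The median SD of the 40 members was 0.29 in treated samples and 0.441 in controls, and the SD was larger in controls for 32 of 40 members, against 66.7% of all genes. Over all genes the median SD was 0.292 in treated samples and 0.401 in controls.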
